A study of Mus musculus with 2 samples.

Results

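The genes described here encode the proteins of the cytosolic ribosome. Members were chosen by symbol alone: names that begin with Rps or Rpl followed by a number, plus Rplp0, Rplp1, Rplp2 and Rpsa, without the S6 kinases (Rps6k), Rps19bp1 and pseudogenes (names with -ps). This gave 85 of the 32285 genes in the count tables, 33 of the small subunit and 52 of the large subunit. At least 1 molecule was counted for 84 members in each library, and Rpl10l had none in either. The measurement was scRNA-Seq of microglia from the lumbar spinal cord, digested with collagenase, cleared of myelin on Percoll and sorted as CD45lo, CD11B+ and CX3CR1hi. The control library (WT in the labels, given as Eif4ebp1fl/fl in the study's legend, thus without Cre) and the 4E-BP1–cKO library (Eif4ebp1fl/fl:TMEM119CreERT2, in which Cre is driven by the microglial gene Tmem119) came from male mice 8 to 10 weeks old that had received 4-OHT at P4 to P9. There was 1 library per genotype, and the number of mice pooled into each is not named in the sources used here. Differences between the libraries therefore have no replicate check and no test, and every interval below is a 95% interval for counting error alone, which leaves out the spread between mice and between sorts.

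A ribosome is built from ribosomal RNA and from 1 copy of most of its proteins. Their mRNAs are among the most abundant of a cell. Most of these mRNAs begin with a C followed by a run of pyrimidines, the 5′ terminal oligopyrimidine (5′ TOP) motif, through which mTORC1 controls their translation by way of LARP1 and the 4E-BPs. 4E-BP1, the protein deleted here, holds back the cap-binding factor eIF4E until mTORC1 phosphorylates it. Droplet counts measure the amount of mRNA, not its translation. Microglia are the resident macrophages of the spinal cord, and their ribosomal mRNA content varies with their state.

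The start sites of a few members show what such a motif looks like, beside starts with only a short run. RefSeq promoter sequences of GRCm38.p6, the build of the deposited counts (mm10), were found for 65 of the 85 members. Each line gives 30 bases, 15 before and 15 after the annotated start, on the gene's own strand from 5′ to 3′. Capitals mark the longest run that begins with C and holds only C and T.
Rpl27a (chr7:109519180-109519209, plus strand): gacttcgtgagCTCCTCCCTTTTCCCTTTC
Rpl35 (chr2:39005117-39005146, minus strand): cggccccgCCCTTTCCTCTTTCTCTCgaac
Rpl15 (chr14:18270972-18271001, minus strand): gtgggagaaagCCTTCTTCCTTTCCTCTgg
Rps10 (chr17:27635230-27635259, minus strand): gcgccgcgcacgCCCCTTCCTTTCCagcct
Rps6 (chr4:86857353-86857382, minus strand): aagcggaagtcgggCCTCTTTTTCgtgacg
Rplp2 (chr7:141447636-141447665, plus strand): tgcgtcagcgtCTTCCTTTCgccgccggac
Rpl22l1 (chr3:28805493-28805522, plus strand): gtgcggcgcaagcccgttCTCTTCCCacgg
Rpl7l1 (chr17:46782642-46782671, minus strand): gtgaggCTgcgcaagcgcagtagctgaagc
The run lies across or beside the annotated start in the first 6 genes, which encode common subunits. In Rpl7l1, the member that departs most from the others below, the longest such run in this window is 2 bases, and other members had short runs too. Within 25 bases on either side of a start, a run of at least 8 bases was found for 33 of the 65 members, or 50.8%. The share was 17.6% of 26960 other genes and 20.7% of the 3850 other genes with at least 200 UMIs (unique molecular identifiers, 1 per captured molecule) over all barcodes. Annotated starts can be off by several bases, and genes with several starts were counted by their longest run. Among genes with 1 annotated start the shares were 49.1% of 55 members and 16.02% of 2952 others.

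After removal of barcodes with 300 or fewer detected genes or at least 5% mitochondrial UMIs, 1147 control cells with 4803562 UMIs and 445 4E-BP1–cKO cells with 1734332 UMIs remained, at medians of 3053 and 2776 UMIs per cell. The libraries shared 0 cell barcodes. At least 3 markers of any 1 other cell type were found in 25 control and 3 4E-BP1–cKO cells, most of them with oligodendrocyte markers (15 and 1). Microglial markers, 11 of 11 of which had at least 200 UMIs over both libraries, made up 0.661 to 1.33% of the UMIs in every tercile of control cells described below.

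Ribosomal protein genes took 247369 UMIs of the control cells, which is 5.15% of all their UMIs (5.13 to 5.17%). Their count over the 4E-BP1–cKO cells was 106006 UMIs, or 6.11% (6.08 to 6.15%). The ratio of these shares was 1.187 (1.178 to 1.195). The cells themselves were far more unequal than the libraries. The share in single control cells ran from 0.315 to 39.2%, with a median of 2.22%, and that in single 4E-BP1–cKO cells from 0.365 to 35.0%, with a median of 3.53%. The middle 50% of cells lay between 1.21 and 5.52% in the control library and between 1.17 and 7.18% in the 4E-BP1–cKO library. On a log axis each library had 2 peaks, with many cells near 1% and many near 6%, and fewer between 2 and 3%.

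**Figure D1:**
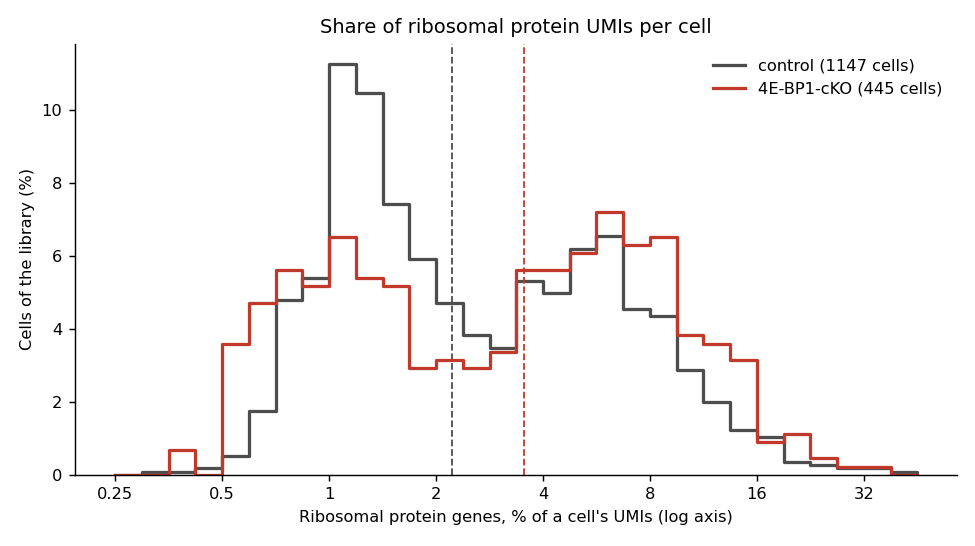
Distribution of the ribosomal protein share over cells, as the percent of each cell's UMIs on a log axis (bins of 0.25 on the log2 scale) against the percent of the library's cells, for 1147 control and 445 4E-BP1–cKO cells. Dashed lines mark the medians, 2.22 and 3.53%; the low peak holds relatively more control cells and the region above 8% relatively more 4E-BP1–cKO cells.

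Cells under 2% were 47.9% of the control library (44.9 to 50.8%) but 39.8% of the 4E-BP1–cKO library (35.2 to 44.5%). These numerous cells contributed only 6.77 and 3.93% of all ribosomal protein UMIs. Cells between 8 and 16% were 10.5% of the control library (8.75 to 12.4%) but 17.1% of the 4E-BP1–cKO library (13.7 to 20.9%). They contributed 40.0 and 43.5% of the ribosomal protein UMIs. Few cells lay above 16%, 24 in the control library (2.09%, 1.35 to 3.10%) against 13 in the other (2.92%, 1.56 to 4.94%).

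Depth moved with the share. When control cells were ranked by share and divided into terciles, the lowest had a median of 2851 UMIs per cell, the middle 1990.5 and the highest 5399.5. The 4E-BP1–cKO terciles had 2091, 2642 and 4768. Over cells, the Spearman correlation of share and depth was 0.29 over 1147 control cells but 0.36 over 445 4E-BP1–cKO cells, where both measures use the same UMI total. The relation was not even. In the quartile of cells with the most UMIs (5500.25 or more, set over both libraries), only 4.58% of the control and 6.14% of the 4E-BP1–cKO cells lay under 2%. In the quartile from 1658.75 to 2976 UMIs, 78.9 and 70.7% did, more than among the shallowest cells (45.6 and 51.8%).

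Other measures also differed along this ranking. A median of 22 members was detected per control cell of the lowest tercile and 76 in the highest, against 14 and 77 per 4E-BP1–cKO cell. The nuclear RNA Malat1 went the other way. It went from 48661 to 38930 and 26095 CPM (UMIs scaled to a total of 1000000) over the control terciles, and from 51922 to 37143 and 29272 CPM over the 4E-BP1–cKO terciles. The mitochondrial share had medians of 0.857, 0.866 and 0.957% in the control terciles and of 0.905, 0.532 and 1.01% in the 4E-BP1–cKO terciles, where the middle one was the lowest. Immediate early and stress genes, which enzymatic digestion can induce, went from 2.02 to 3.46% and from 2.39 to 4.28% of UMIs. Microglial markers went from 0.661 to 1.33% and from 0.614 to 1.18%. The cells with at least 3 markers of another type lay mostly in the highest tercile (20 of 25 and 3 of 3). The part of depth, nuclear RNA, digestion and other cell types in the ribosomal protein share was not tested. Without those cells the control share was 4.99% and the 4E-BP1–cKO share 6.06%.

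The members were far from equal in level, although a ribosome holds 1 copy of most of its proteins. Counts from the 3′ end give 1 UMI per captured molecule and are not divided by length. Rps29, a small zinc-binding protein of the 40S head, was the most abundant, with 13240 UMIs in the control and 5409 in the 4E-BP1–cKO library. This is 2756 CPM (2710 to 2804) and 3119 CPM (3036 to 3203). Rplp1, an acidic protein of the stalk that recruits elongation factors, was the next, with 7639 and 3789 UMIs (1590 and 2185 CPM). Then came 3 small subunit genes in the same order in both libraries, Rps21 (1211 and 1468 CPM), Rps12 (1140 and 1391 CPM) and Rps24 (1076 and 1292 CPM). These 5 genes held 15.1% of the ribosomal protein UMIs in the control and 15.5% in the 4E-BP1–cKO library, and 26 and 25 members were enough to reach 50%. The order of the members was nearly the same in the libraries (Spearman correlation of 0.99 over 85 genes, which share the library and its capture).

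**Figure D2:**
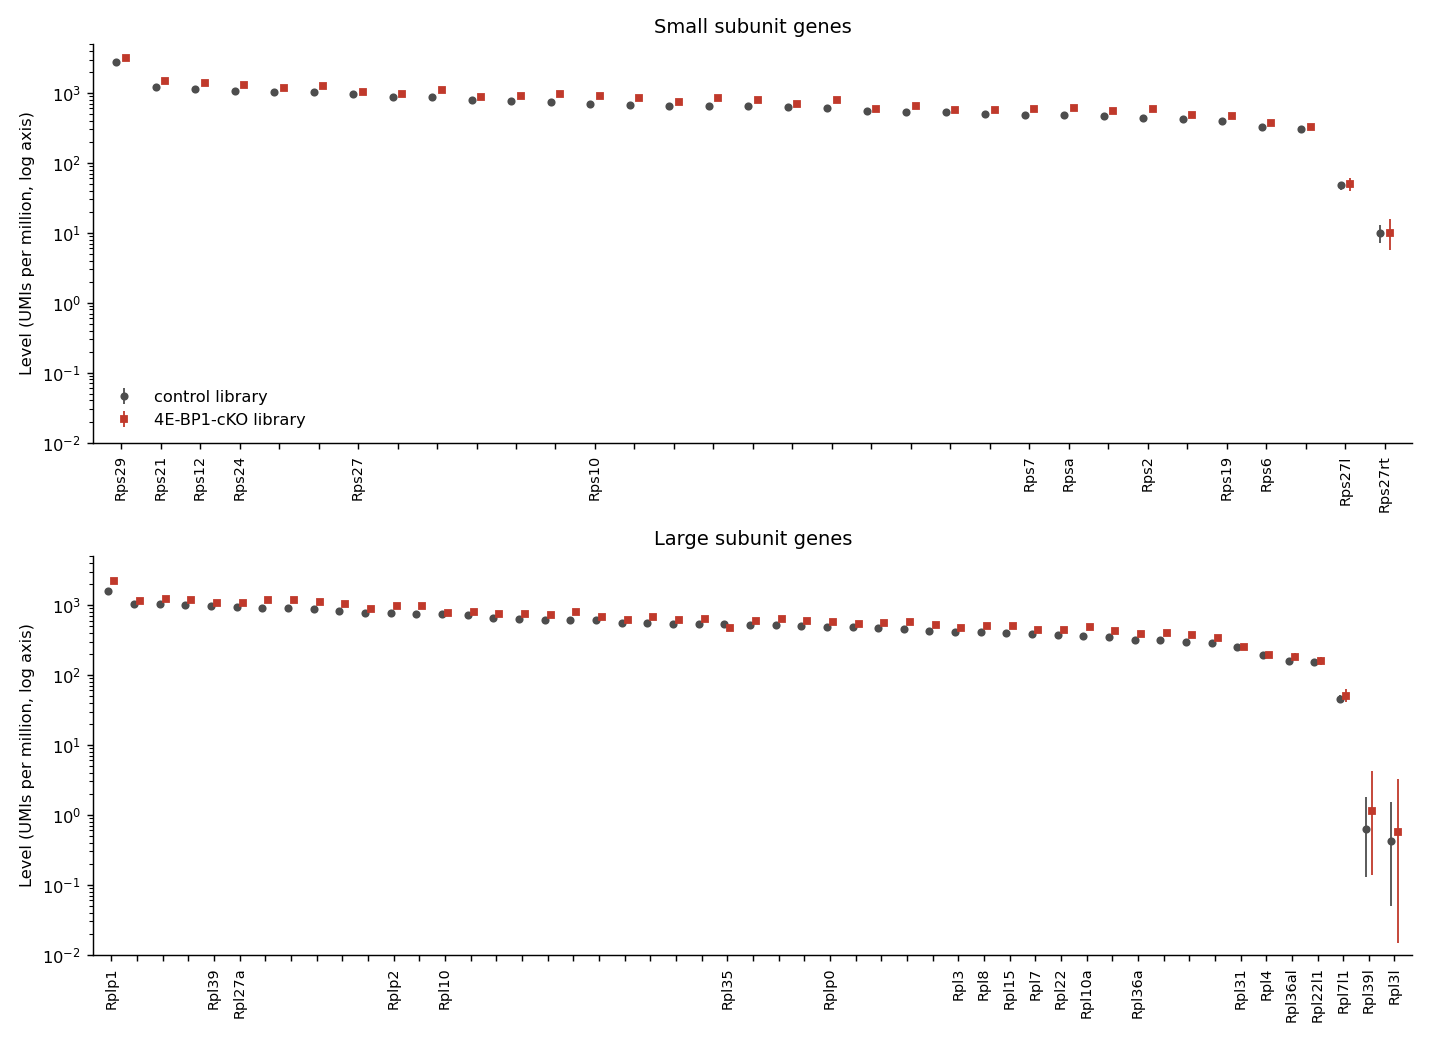
Level of each member with at least 1 UMI in the control (circles) and 4E-BP1–cKO (squares) library, in CPM on a log axis, with 95% Poisson intervals, by subunit and in the order of the control level, with the genes described in the text named. The members other than paralog forms form a slowly falling series below Rps29, and the paralog forms at the right (Rps27l, Rps27rt, Rpl36al, Rpl22l1, Rpl7l1, Rpl39l and Rpl3l) lie lower; Rpl10l, at 0 in both libraries, is not drawn.

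Of the 85 members, 81 had at least 200 UMIs over both libraries. Their median level was 546 CPM in the control and 642 CPM in the 4E-BP1–cKO library. The small subunit genes had a higher median than the large (642 against 533 CPM in the control, 799 against 608 CPM in the 4E-BP1–cKO library), but there were fewer of them. Rps6 was a low member, at 327 CPM (311 to 344) and 371 CPM (343 to 401). It encodes the S6 kinase substrate whose phosphorylation, not its mRNA level, is widely read as a sign of mTORC1 activity. Rpl10a, the protein that carries the tag in translating ribosome affinity purification, had 362 CPM (346 to 380) and 479 CPM (447 to 513). Rpsa, which is also known as a laminin receptor, had 486 CPM (467 to 506) and 607 CPM (570 to 644). The stalk base Rplp0 had 483 CPM (464 to 504) and 580 CPM (545 to 617), and its other acidic protein Rplp2 had 768 CPM (743 to 793) and 972 CPM (926 to 1020). Thus the mRNA of Rplp1 was counted more often than that of its partner Rplp2 in each library.

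The UMIs of the small and large subunit genes stood in nearly the same ratio in both libraries. Small subunit genes took 2.33% and large subunit genes 2.82% of the control UMIs, and 2.76 and 3.35% of the 4E-BP1–cKO UMIs. Their ratio was 0.824 (0.818 to 0.831) in the control and 0.823 (0.813 to 0.833) in the 4E-BP1–cKO library. In single cells with at least 50 ribosomal protein UMIs the median ratio was 0.819 (middle 50% of 491 cells, 0.746 to 0.887) and 0.818 (221 cells, 0.745 to 0.885). Over cells, the shares of the 2 subunits had Pearson correlations of 0.98 (1147 control cells) and 0.97 (445 4E-BP1–cKO cells), where both use the same UMI total. The ratio was not the same at every share. In control cells the ratio was 0.781 (0.753 to 0.811) in the lowest, 0.794 (0.777 to 0.810) in the middle and 0.833 (0.825 to 0.840) in the highest tercile. In 4E-BP1–cKO cells it was 0.737 (0.688 to 0.789), 0.780 (0.759 to 0.801) and 0.839 (0.827 to 0.850). Small subunit genes thus took a larger part of the ribosomal protein UMIs in cells with more of them, in both libraries.

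To see whether single genes follow the common pattern, cells were divided into terciles by the share of the other subunit's genes, so that a gene never ranked the cells it was measured in. Among all 4887 genes with at least 200 UMIs, 14.6% were over 2-fold higher in the highest than in the lowest tercile of the control library, and 15.9% were in the 4E-BP1–cKO library (here genes other than members were ranked on all members). Of the 81 members with enough UMIs, 80 were in each library. The median member was 7.90-fold higher in the control library (log2 ratio 2.98, middle 50% of members 2.84 to 3.13) and 10.9-fold higher in the 4E-BP1–cKO library (3.45, 3.18 to 3.70), where the median of all genes was -0.22 and -0.28. The share of the other subunit ranks on much of the same biology and depth, so the height of this gradient is a description of how closely the members move together.

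The 1 member that did not move with the rest was Rpl7l1 (ENSMUSG00000063888, chromosome 17 from 46773907 to 46782656), which resembles Rpl7 but is known as a factor of large subunit assembly in the nucleolus. Its level was 32.6, 46.0 and 51.2 CPM over the control terciles (37, 60 and 121 UMIs) and 27.2, 62.2 and 53.5 CPM over the 4E-BP1–cKO terciles (10, 35 and 43 UMIs). Its log2 ratios of highest to lowest tercile were 0.63 and 0.95, 2.35 and 2.50 below the median member. It alone passed the limit of 1 log2 unit from the median member in both libraries. Rpl7 itself followed the others (79.3 to 646 CPM and 81.7 to 703 CPM). Rpl7l1 therefore made up 29.1% of the UMIs of this pair in the lowest and 7.34% in the highest control tercile, and 25% and 7.07% in the 4E-BP1–cKO terciles. With cells of middle depth or thinned cells Rpl7l1 had only 101 and 52 UMIs over both libraries and fell under the minimum of 200. Its log2 ratios were then 1.13 and -0.57 in the control and 0.20 and 0.26 in the 4E-BP1–cKO library, all below the median member. Thinning each cell to 872 UMIs instead put Rpl31 past the limit on the high side, with 217 UMIs over both libraries.

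**Figure D3:**
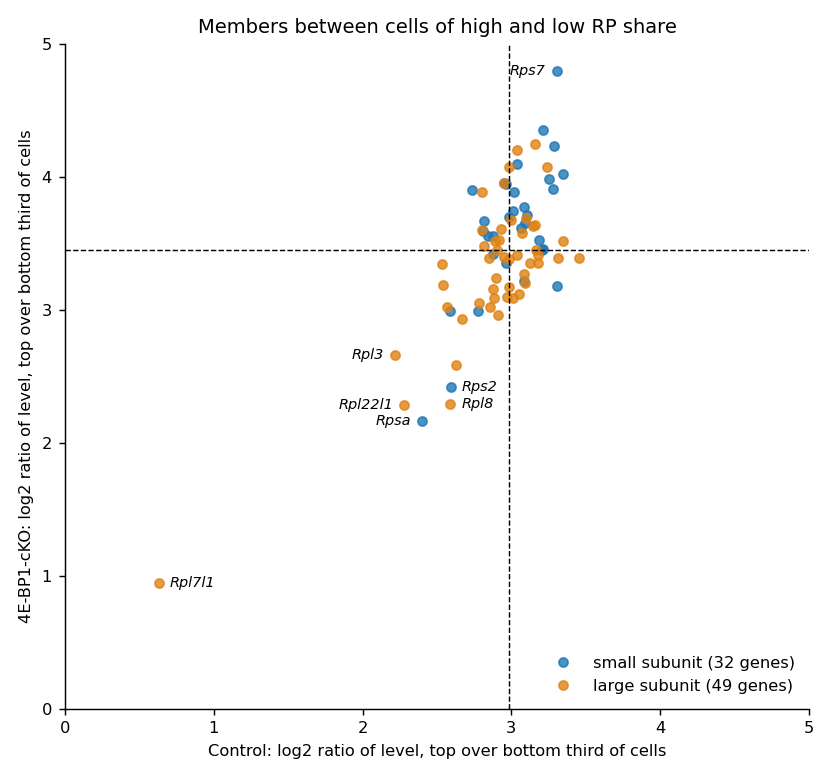
Log2 ratio of each member's level between the tercile of cells with the highest and the lowest share of the other subunit's genes, in the control (horizontal) and 4E-BP1–cKO (vertical) library, for 81 members with at least 200 UMIs; dashed lines are the medians, 2.98 and 3.45. Rpl7l1 lies alone near the lower left corner at 0.63 and 0.95; the other labelled genes were picked for their place in the plot.

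A looser limit of 0.5 log2 units was passed in both libraries by 3 more members, which were all on the low side. Rpl22l1, a paralog of Rpl22, had log2 ratios of 2.28 and 2.29. Rpl3, an essential protein near the peptidyl transferase center, had 2.22 and 2.66, and Rpsa had 2.40 and 2.17. In the 4E-BP1–cKO library alone, 6 members were past 1 log2 unit. These were Rpl7l1, Rpl22l1, Rpsa, Rps2 (2.42) and Rpl8 (2.29) on the low side and Rps7 (4.80) on the high side. Their counts in the lowest 4E-BP1–cKO tercile were small, with 12 UMIs for Rps7 and 59 for Rps2. In the control library Rps7 lay at 3.30, Rps2 at 2.59 and Rpl8 at 2.59, within 0.4 of the median member. Median log2 ratios were 2.97 and 3.48 for the 32 members with a 5′ run of at least 8 bases, as searched above. They were 2.999 and 3.35 for the 29 with a shorter run. The lowest values were 2.28 and 2.29 in the first set and 0.63 and 0.95 in the second, which holds Rpl7l1. Rpl3 had no start sequence and is in neither set. Whether the 5′ TOP motif bears on this gradient was not tested.

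Paralog forms, which replace or resemble a common subunit, ranged from absent to a large part of their pair. Reads that match several genes equally are dropped by the authors' counting, so that near-identical copies are uncertain. Rpl36al made up 33.0% (31.1 to 35.0%) of the UMIs of Rpl36al and Rpl36a in the control and 32.2% (29.2 to 35.2%) in the 4E-BP1–cKO library. Rpl22l1 made up 28.7% (26.9 to 30.5%) and 26.7% (24.0 to 29.5%) of its pair with Rpl22. Its part went from 39.4% in the lowest to 26.6% in the highest control tercile, and from 38.1 to 22.8% in the 4E-BP1–cKO terciles. Rps27l, known as a p53 target, was a small part beside Rps27, 4.71% (4.13 to 5.35%) and 4.57% (3.67 to 5.62%). Its part was 4.76% in the lowest and 4.48% in the highest control tercile, and 4.76 and 4.46% in the 4E-BP1–cKO terciles. The lowest terciles held only 11 and 2 UMIs of Rps27l, so these parts are uncertain. Rps27rt, a copy of Rps27, had 47 and 17 UMIs beside 4611 and 1795 of Rps27.

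Forms known from other tissues were at or near 0. Rpl39l, known from testis, had 3 and 2 UMIs beside 4624 and 1864 of Rpl39. Rpl3l, known from heart and skeletal muscle, had 2 and 1 beside 1976 and 801 of Rpl3. Rpl10l, a testis form, had 0 beside 3538 and 1342 of Rpl10. The interval of a count of 0 reaches 3.69 UMIs, or 0.768 CPM in the control and 2.13 CPM in the 4E-BP1–cKO library. The pseudogenes that the rule leaves out held few UMIs, the most being Rpl10-ps3 with 39 and 16.

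Within the ribosomal protein UMIs of a cell, the counts of most members varied over cells somewhat more than counting alone would give. The variance of each member's count over cells with at least 50 ribosomal protein UMIs was divided by the variance expected if every cell drew from the library's mean mixture. A ratio of 1 means no spread beyond counting. At equal relative spread, the excess over 1 grows with the UMIs per cell and with the level of the member. Its order over members is therefore not an order of relative spread. The median over 81 members was 1.28 over 491 control cells, and also 1.28 over 221 4E-BP1–cKO cells, with medians of 329 and 327 ribosomal protein UMIs per cell. The lowest ratios were 1.02 and 0.919. A ratio near 1 does not show a fixed mixture for a member with few UMIs. Rpl7l1 had 1.18 and 1.28, although its part was 0.275% in control cells under 2% and 0.034% above 16% (46 and 8 UMIs). In the 4E-BP1–cKO library these parts were 0.288 and 0.029% (12 and 4 UMIs). Rplp1 (chromosome 9 from 61913283 to 61914510) stood above all others, at 2.45 in the control and 4.56 in the 4E-BP1–cKO library, where the next highest were 1.85 and 1.82. After Rplp1, the members highest in both libraries were Rpl22l1 (1.81 and 1.79), Rps29 (1.79 and 1.82) and Rps19 (1.54 and 1.60), known for its mutation in Diamond-Blackfan anemia. Over all kept cells Rpl22l1 had only 727 and 276 UMIs, against 7639 and 3789 of Rplp1.

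The part of Rplp1 in a cell's ribosomal protein UMIs had a median of 2.98% in the control cells, with 5% of cells below 1.09% and 5% above 5.29%. In the 4E-BP1–cKO cells the median was 3.47%, with 5% of cells below 1.62% and 5% above 6.37%. The large value in the 4E-BP1–cKO library rested in part on few cells. Without the 5 cells farthest from the pooled part, an alternative chosen after seeing the data, its ratio was 2.87, and that of the control library 1.95. At equal depth, after thinning, it was 1.04 in the control, beside a median member of 1.05, and 1.86 in the 4E-BP1–cKO library, beside 1.04. In cells of middle depth it was 1.36 and 2.59.

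Among cells with a share above 2%, Rplp1 took a smaller part where the total was larger. In control cells with a ribosomal protein share of 2 to 4%, it made up 3.42% (3.21 to 3.64%) of these UMIs, against 3.08% (2.97 to 3.19%) at 8 to 16% and 2.47% (2.28 to 2.68%) above 16%. In 4E-BP1–cKO cells the same classes had 3.96% (3.57 to 4.38%), 3.45% (3.28 to 3.62%) and 2.75% (2.49 to 3.04%). Below 2% the part of Rplp1 was 3.24% (2.98 to 3.52%) in the control and 4.40% (3.795 to 5.07%) in the 4E-BP1–cKO library. Rps29 had 5.47, 5.30 and 5.18% in the control, a smaller relative difference in the same order, and 4.46, 5.23 and 4.98% in the 4E-BP1–cKO library, in another order. Rpl22l1 went from 0.401% (0.331 to 0.482%) at 2 to 4% to 0.150% (0.105 to 0.209%) above 16% in the control library. In the 4E-BP1–cKO library it went from 0.419% (0.297 to 0.574%) to 0.204% (0.136 to 0.295%).

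**Figure D4:**
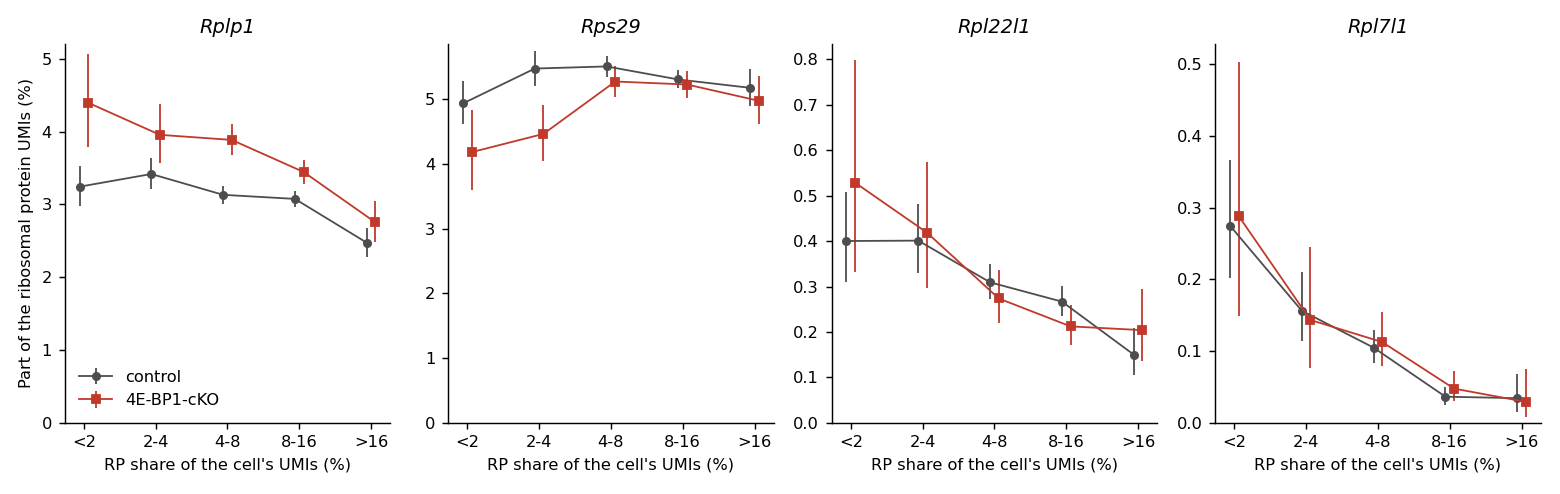
Part of the ribosomal protein UMIs (percent) that fell on Rplp1, Rps29, Rpl22l1 and Rpl7l1, against the class of the cell's ribosomal protein share (percent), in the control (circles) and 4E-BP1–cKO (squares) library, with 95% Clopper-Pearson intervals over the summed UMIs of the class. Rplp1 lies higher in the 4E-BP1–cKO library in every class, with overlapping intervals only above 16% and at 2 to 4%, while Rpl22l1 and Rpl7l1 have overlapping intervals in all classes.

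Between the libraries, the members differed little from each other. Each of 79 of the 81 members with enough UMIs was higher in the 4E-BP1–cKO library, against 45.1% of all 4887 genes. The higher total given above is the sum of these members, so it does not explain this count. The median log2 ratio (CPM with 1 CPM added) was 0.24 (middle 50% of members 0.17 to 0.31), beside -0.03 for all genes, and it was 0.24 for each subunit. No member passed 1.5-fold: 0 of 81 were higher, where 1.19% of all genes were, and 0 were lower, where 3.21% were. With a smaller limit, 25% higher or the same fold lower, 17 members were higher, where 8.55% of all genes were, and 0 were lower, where 14.6% were. These counts depended on depth. With only the cells between 1658.75 and 5500.25 UMIs, 59 of 79 members were over 1.5-fold higher in the 4E-BP1–cKO library. Their median log2 ratio was 0.65, beside -0.09 for all genes. With cells thinned to 872 UMIs, 5 of 76 members were, with a median of 0.39 beside -0.04 for all genes. The share of all genes past 1.5-fold was not counted under these settings, so how unusual these counts are was not tested.

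The libraries were also compared within classes of cells cut on the ribosomal protein share itself. The limits of a class bound the share within it, so ratios near 1 there were in part fixed in advance. With the limits of the control terciles (1.39 and 4.17%), 44.3% of the 4E-BP1–cKO cells fell in the highest class, against 33.3% of the control cells by construction. Within the classes the ribosomal protein share was 0.994% in the control and 0.850% in the 4E-BP1–cKO library for the lowest, 2.80 and 2.78% for the middle and 8.47 and 9.08% for the highest. The ratios were 0.855 (0.820 to 0.892), 0.993 (0.972 to 1.01) and 1.07 (1.06 to 1.08), so the direction turned between the lowest and the highest class. Averaged over the classes, the median log2 ratio of the members was -0.05, with 30 above 0 and 51 below. The median of all genes was -0.03 on the same average, and genes above and below 0 were not counted for it. Because the classes are cut on the members' own summed share, this average cannot show whether the members differ between the libraries. By depth, the gap was widest in the quartile from 2976 to 5500.25 UMIs (3.57% of UMIs in the control and 6.16% in the 4E-BP1–cKO library) and narrowest in the deepest quartile (6.81 and 7.13%).

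Some members stood off from the common difference. Highest was Rplp1, at 1590 CPM (1555 to 1626) in the control and 2185 CPM (2116 to 2255) in the 4E-BP1–cKO library, a log2 ratio of 0.46. The next were Rps2, a protein of the mRNA entry side of the 40S subunit, with 437 and 582 CPM (0.41), and Rpl10a, with 0.40. Lowest was Rpl35 (chromosome 2 from 39001581 to 39005131), a protein at the exit of the peptide tunnel, with 533 CPM (512 to 554) in the control and 468 CPM (437 to 502) in the 4E-BP1–cKO library (-0.19). Then came Rpl4, which lines that tunnel, with 195 and 193 CPM (-0.02), and Rpl31, another protein of its exit, with 247 and 251 CPM (0.02). These low values changed with depth, and so did the median member. In cells of middle depth the log2 ratios of Rpl35, Rpl4 and Rpl31 were 0.07, 0.36 and 0.79, beside a median member of 0.65. After thinning they were -0.15, -0.49 and 0.42, beside 0.39. Rpl35 and Rpl4 thus stayed below the median member, and Rpl31 lay above it. After thinning, Rpl31 kept only 217 UMIs over both libraries. Rpl4 has fewer UMIs than Rpl31 before thinning (1269 against 1623), so its thinned value is uncertain. The order of the high members changed too. Averaged over the classes of share, Rps2 was at 0.35, Rplp1 at 0.22 and Rpl10a at 0.03. In cells of middle depth Rplp1, Rps2 and Rpl10a were at 0.79, 0.76 and 0.61, and after thinning at 0.58, 0.63 and 0.39.

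**Figure D5:**
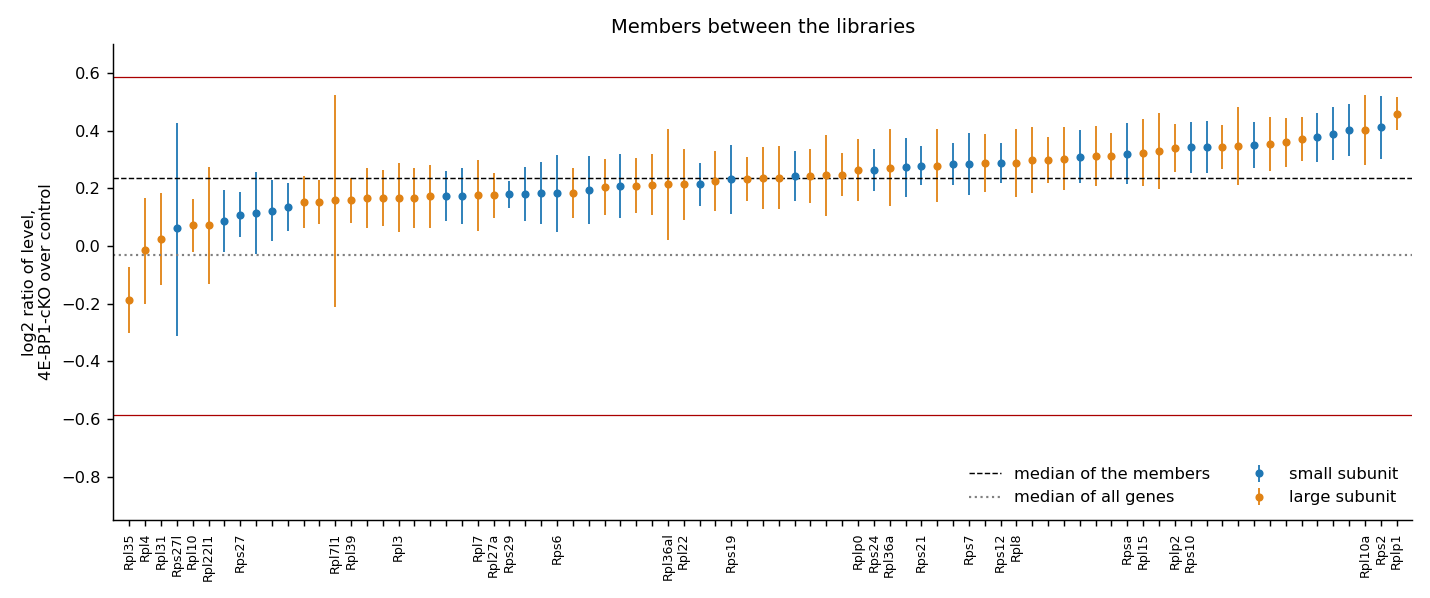
Log2 ratio of level (CPM with 1 CPM added) between the 4E-BP1–cKO and the control library for 81 members with at least 200 UMIs, in order, with exact 95% intervals of the ratio that cover counting error only and the genes described in the text named. The dashed line is the median member (0.24), the dotted line the median of all genes (-0.03) and the red lines 1.5-fold; no member passes them, and Rpl35 alone has its whole interval below 0.

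Set against the ribosomal protein total of its own library instead of all UMIs, Rplp1 was 1.16-fold higher in the 4E-BP1–cKO library (1.113 to 1.204) and Rpl35 0.740-fold (0.683 to 0.801). The counting interval of this ratio lay above 1 for 14 of the 81 members and below 1 for 12. These intervals cover counting error only, and the same count was not made for all genes. Whether these numbers are high for genes with such counts was therefore not tested. Rplp1 and Rpl35 kept their direction within each class of share set by the control terciles. The classes split the same UMIs by which both genes were picked, so this is no separate check. Against the ribosomal protein total, the log2 ratios of Rplp1 were 0.35, 0.24 and 0.21 from the lowest to the highest class. Those of Rpl35 were -0.37, -0.19 and -0.48, the first from only 21 UMIs in the 4E-BP1–cKO library.

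Some of the genes that encode ribosomal proteins under other names were set beside the members. Fau, which encodes the small subunit protein RPS30 fused to a ubiquitin-like protein, had 1578 CPM (1543 to 1614) in the control and 2041 CPM (1974 to 2110) in the 4E-BP1–cKO library. Rack1, a scaffold on the small subunit, had 301 CPM (285 to 317) and 382 CPM (353 to 412). Both went with the members (log2 ratios of 0.37 and 0.34).

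Other genes of the translation machinery followed the members over cells in part, on lists chosen with earlier results of these data known. All 5 elongation factor genes with enough UMIs were over 2-fold higher in the highest tercile in each library, with median log2 ratios of 2.34 and 2.50, below those of the members. Of 14 other known 5′ TOP mRNAs, 10 were in the control and 14 in the 4E-BP1–cKO library (medians of 1.93 and 2.21). Of 13 genes of ribosome biogenesis, 2 and 3 were (0.04 and 0.69). Of 11 mitochondrial ribosomal protein genes with enough UMIs, of 78 in the table, 4 and 6 were (0.79 and 1.27). Among all genes with enough UMIs, 14.6% were in the control and 15.9% in the 4E-BP1–cKO library (medians of -0.22 and -0.28). Lists outside translation also lay above all genes. Of 11 microglial markers, 5 and 4 were over 2-fold higher (medians of 0.96 and 0.84). Of 20 immediate early and stress genes, 5 and 5 were (0.64 and 0.61). Between the libraries the elongation factor, 5′ TOP, biogenesis and mitochondrial lists had median log2 ratios of 0.18, 0.19, 0.20 and -0.06. Over 1.5-fold lower in the 4E-BP1–cKO library were 1 biogenesis gene and 1 mitochondrial ribosomal protein gene, where 3.21% of all genes were.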

How the data were processed

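Per the file headers and the study's methods, the authors made UMI counts per gene and barcode with Cell Ranger (8.0.1) on mm10 and deposited the raw counts of barcodes called as cells, without normalization. The annotation release was not stated there. The limits of the study's methods were applied, over 300 detected genes and below 5% of UMIs from mitochondrial genes. The study also removed doublets with scDblFinder and reports fewer cells of each genotype. Doublets were left in here, so the cells are not the same set. Counts were summed per library and scaled to CPM. Ratios used 1 CPM as pseudocount. Intervals (95%) were exact Poisson, Clopper-Pearson or conditional, and cover counting error only. No test was run, because there was 1 library per genotype. Genes with at least 200 UMIs over both libraries entered comparisons. The genes named are the 5 most and 5 least counted members, those that depart from the common gradient, the 5 with the highest variance ratio, the 3 highest and 3 lowest between libraries, paralog forms with their counterparts, the stalk genes, Rpsa, Rps6, Rpl10a, Fau and Rack1. Some genes under this rule are not reported here. Rps7 and Rpl8 were added after their values were seen. Members and lists were chosen with earlier results of these data known. Scrublet (scanpy 1.11.5) marked doublets for an alternative only (4 control and 11 4E-BP1–cKO cells). TMM factors came from edgeR 4.0.16. Python 3.11.15, numpy 2.4.6, scipy 1.17.1 and pandas 2.3.3 were used. Steps were tested on simulated data.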

Additional observations from a re-analysis of the deposited data

How the results depend on the processing

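The ribosomal protein share was 5.15% in the control and 6.11% in the 4E-BP1–cKO library. It was higher in the 4E-BP1–cKO library under every alternative choice of cells. The control share was 5.10% with a mitochondrial limit of 10%, 4.99% without cells with markers of another cell type, 3.24% in cells of middle depth and 3.89% after thinning. The 4E-BP1–cKO share was 6.16% with more than 500 detected genes, 6.17% without doublets, 6.06% without cells with other markers, 5.11% in cells of middle depth and 5.09% after thinning. Thinning and middle depth leave out or weigh down the deepest cells, which had the highest shares. Cells under 2% made up 69.2% of control and 51.0% of 4E-BP1–cKO cells of middle depth. The ratio of small to large subunit stayed within its interval but for thinned 4E-BP1–cKO cells (0.834). The number of members over 1.5-fold higher in the 4E-BP1–cKO library, 0, became 59 in cells of middle depth and 5 after thinning. The share of all genes was not counted for these cells. With a limit of 25% higher the number became 17, where 8.55% of all genes were. The number of members that were lower was 0 under all alternatives. The number that departed from the common gradient, 1, became 0 in cells of middle depth and 4 with a limit of 0.5 log2 units. TMM factors, scaling to the UMIs of all genes but the ribosomal and mitochondrial ones, and a pseudocount of 10 CPM left the median log2 ratio of the members between 0.23 and 0.27. Averaged over the classes of ribosomal protein share instead, this median was -0.05, beside -0.03 for all genes, with 30 members above 0 and 51 below. Genes above and below 0 were not counted over all genes for this average. These classes are cut on the members' own share, which takes out much of a shared difference, so this setting is no check of it. No paired analysis was possible because each genotype had 1 library. With 1 library per genotype, no setting can show whether mice of a genotype differ as much as the libraries do.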

Other observations

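Barcodes removed by the limits on detected genes and mitochondrial UMIs also held ribosomal protein UMIs. The 69 control barcodes had 3488 of 110736 UMIs on these genes, or 3.15%, with a median of 3.87% per barcode. The 29 4E-BP1–cKO barcodes had 1628 of 35595, or 4.57%, with a median of 3.86%.

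Genes whose symbols begin like those of the members but that encode kinases mostly went the other way over cells. The 5 S6 kinase family genes with at least 200 UMIs, Rps6kc1, Rps6ka1, Rps6kb1, Rps6ka5 and Rps6ka3, had a median log2 ratio between the highest and lowest tercile of ribosomal protein share of -0.65 in the control and -0.95 in the 4E-BP1–cKO library. Rps6kb1, which encodes the S6 kinase that phosphorylates Rps6, had log2 ratios of -0.63 and -0.95. Rps6ka1 was the exception among the 5, with 0.27 and 0.28. All genes with this minimum had medians of -0.22 and -0.28.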
